A study of Mus musculus with 20 samples.

Results

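Wnt signalling is held in check by proteins that the responding tissue often makes itself, and 10 genes of the pathway, antagonists and nuclear factors, were followed here in early mouse skin. They are Kremen2, Dkk1, Dkk4, Sost, Sostdc1, Notum and Apcdd1, which encode antagonists acting outside the cell or at its surface, Axin2, which encodes an inhibitor inside the cell, and Lef1 and Tcf7, which encode the DNA-binding partners of beta-catenin. The genes form a list of names, proposed with earlier results of these data known, and all 10 of the 10 were found among the 23432 gene symbols listed in each RNA file. In the canonical pathway a Wnt ligand joins a Frizzled receptor to the co-receptors Lrp5 or Lrp6, beta-catenin escapes destruction, and it enters the nucleus to act through factors such as Lef1 and Tcf7. Axin2, Lef1, Tcf7 and several secreted antagonists are themselves widely described as targets of the pathway and are used as its readouts. In skin, Wnt signals in the surface ectoderm precede the hair placodes, and p63, the product of Trp63, is required for a stratified epidermis.

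RNA came from sorted cells of mouse back skin in 4 groups of 3 libraries. The E9 Het group was epidermis at embryonic day 9, and the E13 Het group was epidermis at embryonic day 13, both of the genotype labelled {delta}Np63 -GFP KI-Het. The E13 KO group was epidermis at embryonic day 13 of the genotype labelled {delta}Np63 -GFP KI-KO, and the E13 dermis group was dermis at embryonic day 13 of the Het genotype. Every group therefore carried the GFP allele of the delta-N unit of Trp63, and no RNA library came from mice without it. Epidermal cells were collected for their GFP, so their selection depended on transcription of the disrupted locus, and dermal cells were collected with a CD140a antibody. Epidermal RNA was depleted of ribosomal RNA, whereas oligo(dT) selection was used for dermal RNA. Tissue and preparation therefore cannot be told apart. The labels do not say whether the libraries of a group came from separate animals, and the p-values cover the spread among these libraries, which may be technical.

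Counts assigned to genes ranged from 3373819 to 7777808 in the epidermal and from 16931664 to 33386872 in the dermal libraries. Levels are given as CPM, counts relative to the library total. Trp63 stood at 492.9 to 654 CPM in E13 Het and at 22.5 to 26.6 CPM in E13 KO, which matches the labels. The 10 epidermal markers listed for the check summed to 2221 to 2340 CPM at E9, 4405 to 5622 in E13 Het and 3067 to 4123 in E13 KO. Each of them was detected in at least 1 library of each of these groups, but their directions differed. Krt5, Krt14, Krt15, Col17a1 and Itgb4 were lower in every E13 KO library than in any E13 Het library, and Krt8, Krt18 and Epcam were higher. On a scale common to all 12 libraries, Krt5 was at 1033 to 1357 CPM in E13 Het and 19.5 to 44.3 CPM in E13 KO. Col17a1 was at 0, 1.35 and 0 CPM in E13 KO. Krt8 and Krt18 were uneven within E13 Het, with replicate 3 far above replicates 1 and 2. On the same scale replicates 1, 2 and 3 held 67.6, 21.8 and 628 CPM of Krt8 and 29.4, 26.1 and 412.5 CPM of Krt18. Library totals were scaled by the trimmed mean of M-values (TMM), and changes are log2 fold changes ± standard error. A gene was called at an adjusted p under 0.05 in edgeR's quasi-likelihood test over all genes tested. Of the markers named above, Krt5, Col17a1, Itgb4 and Epcam were called between E13 KO and E13 Het. Krt14, Krt15, Krt8 and Krt18 were not (adjusted p 0.121, 0.358, 0.665 and 0.519). In bulk libraries, fewer cells of a kind and less RNA per cell cannot be told apart.

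Sequence before the start site was available for 6 of the 10 genes in a RefSeq promoter table of GRCm38.p6, and it is shown for 3 antagonist genes whose epidermal levels stood far apart between groups. Each is written 5′ to 3′ on the strand of the gene, all 3 lie on the minus strand, and bases inside the gene record itself are left out. Capitals mark a match to CTTTGAA, 1 of 2 TCF/LEF-type motifs searched on both strands. These are 119 bases before Kremen2 (chr17:23745961-23746079), 250 before Sost (chr11:101967016-101967265) and 250 before Dkk1 (chr19:30549497-30549746).
Kremen2: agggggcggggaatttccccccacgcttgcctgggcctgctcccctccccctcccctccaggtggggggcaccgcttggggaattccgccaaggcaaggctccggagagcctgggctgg
Sost: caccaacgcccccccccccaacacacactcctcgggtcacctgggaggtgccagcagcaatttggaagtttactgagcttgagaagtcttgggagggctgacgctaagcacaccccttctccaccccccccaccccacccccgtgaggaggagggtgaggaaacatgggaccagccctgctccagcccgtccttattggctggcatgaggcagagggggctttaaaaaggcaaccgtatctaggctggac
Dkk1: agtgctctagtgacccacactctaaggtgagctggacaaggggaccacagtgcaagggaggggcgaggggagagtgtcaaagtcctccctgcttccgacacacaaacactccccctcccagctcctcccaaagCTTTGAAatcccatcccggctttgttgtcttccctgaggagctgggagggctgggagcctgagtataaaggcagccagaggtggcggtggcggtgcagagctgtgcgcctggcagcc
The second motif was CTTTGAT, and the 2 motifs cannot overlap each other on a strand. Of the 10 windows of 300 bases that the table holds for Kremen2, Dkk1, Sost, Axin2, Lef1 and Tcf7, the Dkk1 window alone held a match, 117 bases before the start. Over all genes, 8.65% of 32851 windows held at least 1 match. The stretches had 72.3%, 61.2% and 60.8% G or C, against a median of 52.4% for the 250 bases before the start over the table. A match is a description of letters, and its absence says nothing about a factor.

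**Figure D1:**
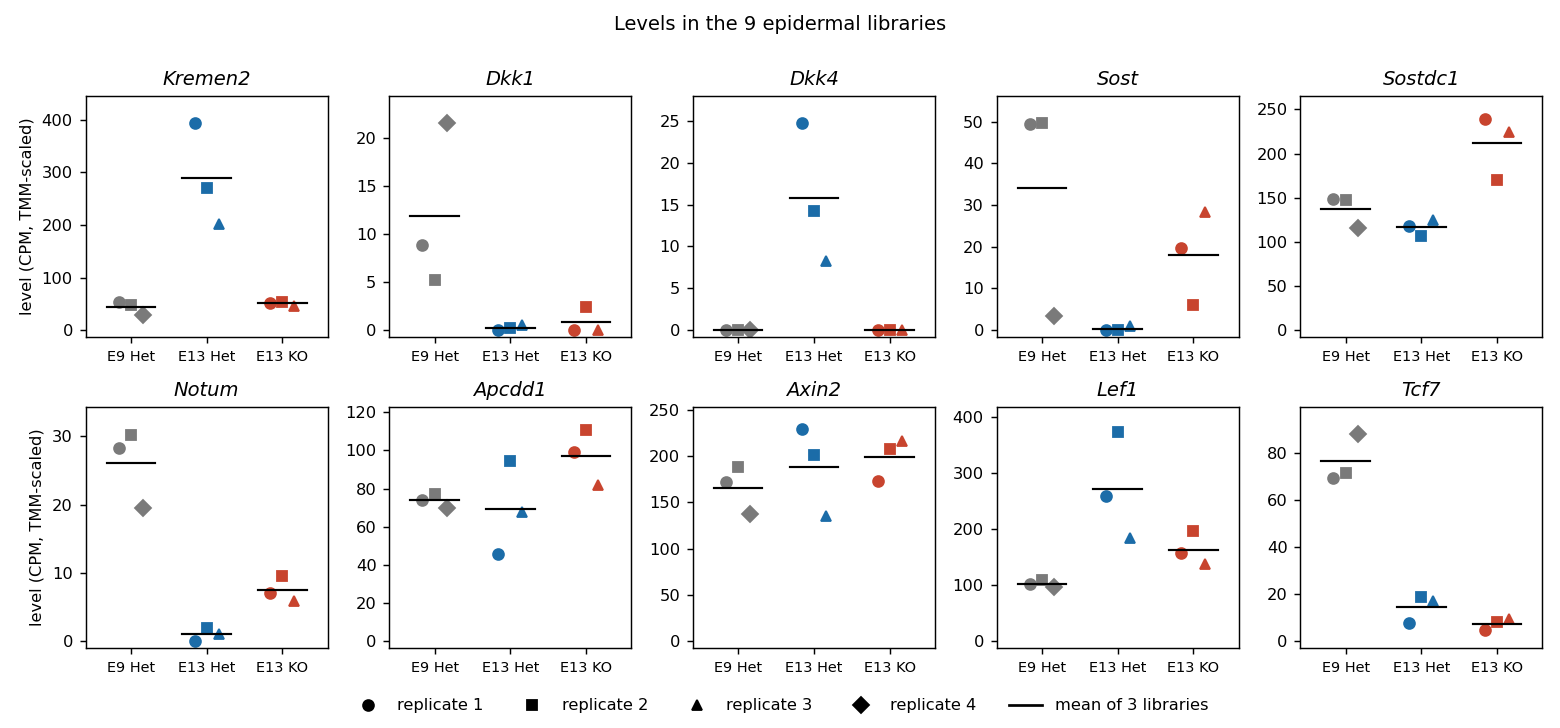
Levels of the 10 genes in the 9 epidermal libraries, in TMM-scaled CPM on the vertical axis of each panel; grey, blue and red points are the E9 Het, E13 Het and E13 KO libraries, symbols give the replicate number and the black line is the mean of 3. Kremen2 and Dkk4 are high in E13 Het, Sost and Notum are high at E9 and low in E13 Het, and Axin2 covers much the same range in all 3 groups.

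The epidermal libraries fell into a few patterns. Kremen2 and Dkk4 were high in E13 Het and low or absent in both E9 Het and E13 KO. Sost had the opposite order, and Notum was lowest in E13 Het. Tcf7 and Dkk1 were high at E9 and low in both E13 groups, while the levels of Axin2 and Apcdd1 overlapped between E13 KO and E13 Het.

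Between E13 KO and E13 Het, which asks what differs in epidermis when the delta-N unit of Trp63 is disrupted, 2 of the 10 genes were higher in KO (Sost and Sostdc1), 1 was lower (Kremen2) and 7 were not called. All 10 passed the filter on low counts, Dkk4 through E13 Het alone and Dkk1 through E9 Het alone. Of the 13052 genes tested, 2.20% were called. The 10 genes were chosen with earlier results of these data known, so that a larger share among them is partly set by the choice. For 5 of the 10 genes all libraries of 1 group lay above those of the other, against 20.0% of all genes. The median log2 fold change of the 10 was 0.28, against 0.03 for all genes. The count of 3 was 1 without E13 Het replicate 1 or 2 or E13 KO replicate 1 or 3, and Kremen2 was the gene that remained.

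Between E13 Het and E9 Het, which follows the epidermis over development, 3 genes were higher at E13 (Kremen2, Dkk4 and Lef1), 3 were lower (Sost, Notum and Tcf7) and 4 were not called. The share called among all genes was 7.29%. Libraries did not overlap for 7 of the 10, against 29.0% of all genes, and the median log2 fold change was -0.16, against 0.00 (-0.0019) for all genes. Those 7 include Dkk4 and Dkk1, which each passed the filter through 1 group alone. Between E13 KO and E9 Het, 0 genes were higher and 1 was lower (Tcf7) with edgeR, beside a share called of 7.67% among all genes. At an unadjusted p under 0.05 edgeR had 2 higher and 1 lower, DESeq2 called 2 and 2, and limma voom called 1 and 3. Libraries did not overlap for 6 of the 10 genes in that comparison, Dkk1 among them, against 31.9% of all genes. The median was 0.12, against 0.01. Dkk4 had 0 counts in both of these groups, so it could show no change there and entered the median at 0. These 3 comparisons share libraries pairwise, and their values are set side by side without a test between them.

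**Figure D2:**
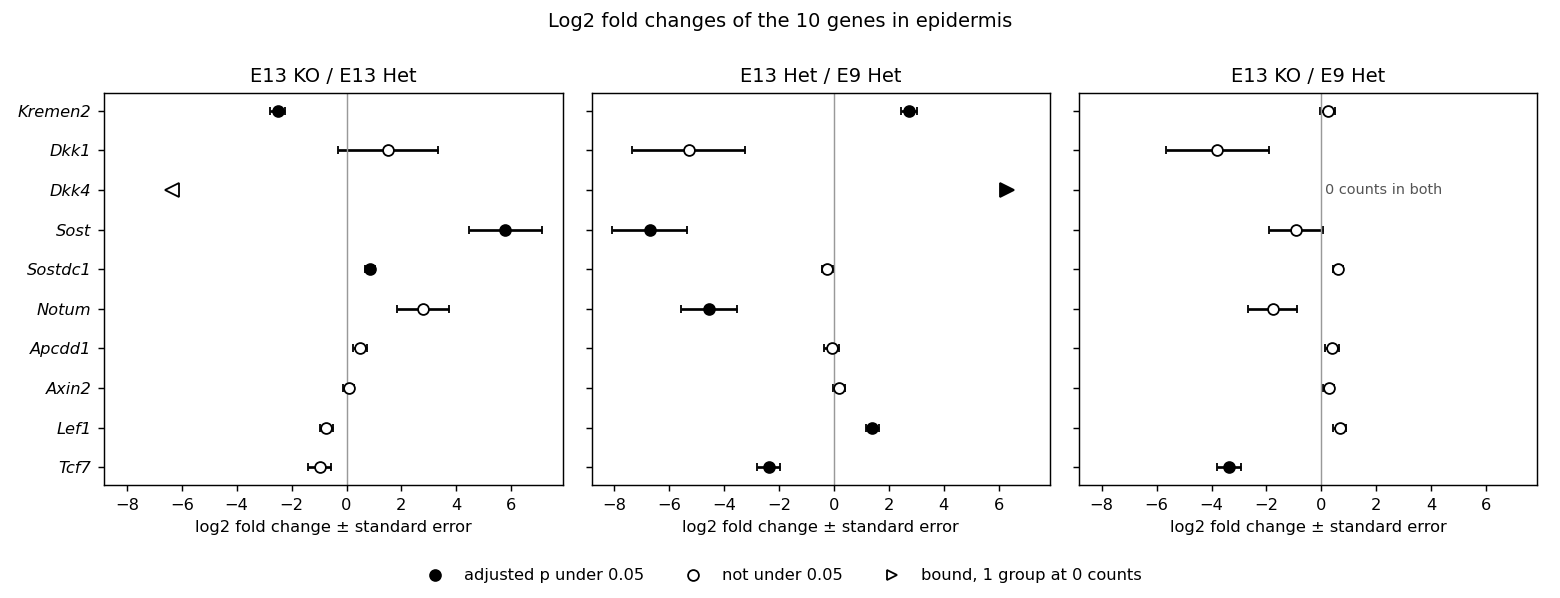
Log2 fold change (horizontal axis) ± standard error of each gene in the 3 comparisons among epidermal groups, from 1 fit of 9 libraries; filled symbols have an adjusted p under 0.05, open ones do not, and triangles are bounds for Dkk4, which had 0 counts in 1 of the groups compared. Kremen2 stands at -2.51 against E13 Het and at 0.23 against E9 Het.

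Kremen2 encodes a transmembrane receptor that binds Dkk proteins and helps them to clear Lrp6 from the cell surface. It stood at 52.8, 48.3 and 28.2 CPM in the E9 Het libraries, at 395, 271 and 202 CPM in E13 Het, and at 51.8, 54.4 and 45.8 CPM in E13 KO. The E13 Het libraries were all above the others, and the E9 Het and E13 KO libraries overlapped. The mean was 43.1 ± 13.1 CPM (SD, n = 3) at E9, 289 ± 97.4 CPM in E13 Het and 50.7 ± 4.41 CPM in E13 KO. Between E9 and E13, Kremen2 rose in Het epidermis (2.74 ± 0.28, 6.68-fold, adjusted p 3.2e-05). It was 5.69-fold lower in KO than in Het at E13 (-2.51 ± 0.28, adjusted p 0.00016). Against E9 Het the E13 KO level gave 0.23 ± 0.27 (adjusted p 0.726). Both calls held in each of the leave-1-out fits. In 1 fit of all 12 libraries, where 2 dermal libraries held 6 and 41 counts and 1 held 0, the changes were -2.49 and 2.73 and neither passed (adjusted p 0.26 and 0.102).

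Dkk4 encodes a secreted ligand of Lrp5, Lrp6 and the Kremen proteins, and it is known as a gene of the hair placode. It had 0 counts in each E9 Het, E13 KO and dermal library. The E13 Het libraries held 99, 108 and 45 counts, which are 24.7, 14.3 and 8.31 CPM. A total of 3 counts, the limit that 0 counts allow, would be 0.190 CPM over the E9 Het group and 0.180 CPM over E13 KO. Against those limits Dkk4 was at least 78.1-fold higher in E13 Het than at E9 (adjusted p 0.0266) and at least 82.5-fold lower in E13 KO, a difference that did not pass (adjusted p 0.0568). Limits of this kind cover counting error only. The rise over development was not called without E9 Het replicate 1, 2 or 4 or E13 Het replicate 1 or 2 (adjusted p up to 0.0807). In the comparison of KO with Het, DESeq2 (adjusted p 8.1e-06), limma voom (0.00139), a fit without the filter (0.0144) and a fit of the 2 groups alone (0.0397) made the call, and the other alternatives did not (up to 0.184).

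Dkk1 encodes the best known secreted ligand of Lrp6 in this family. It stood at 8.87, 5.17 and 21.5 CPM at E9, at 0, 0.264 and 0.554 CPM in E13 Het and at 0, 2.43 and 0 CPM in E13 KO. All E9 libraries lay above all E13 libraries, and E13 KO replicate 2 held all 17 counts of its group. The change from E9 to E13 in Het was -5.29 ± 2.05 (adjusted p 0.155) and E13 KO against E9 gave -3.78 ± 1.89 (adjusted p 0.275), and neither passed with edgeR. DESeq2 (0.00687) and the fit of all 12 libraries (0.0294) called the first, and limma voom (0.0392) the second. The difference between KO and Het at E13 was 1.503 ± 1.81 (adjusted p 0.872). It turned to -3.69 without E13 KO replicate 2, so its sign rested on that library. The same library had the highest sum of the 12 dermal mesenchyme markers among the epidermal libraries, 2170 CPM, and Dkk1 was higher in dermis than in Het epidermis at E13, as given below. The part of dermal cells in the 17 counts was not tested.

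Sost encodes sclerostin, a secreted antagonist that binds Lrp5, Lrp6 and Lrp4 and is best known from bone. It stood at 49.6, 49.6 and 3.46 CPM at E9, so that replicate 4 was far below the other 2. In E13 Het it had 0, 0 and 5 counts, or 0, 0 and 0.924 CPM, and in E13 KO 19.7, 6.14 and 28.5 CPM. Every E9 and every E13 KO library was above the E13 Het libraries, and the E9 and KO libraries overlapped. Sost fell from E9 to E13 in Het (-6.71 ± 1.36, 105-fold, adjusted p 0.0094) and was higher in KO than in Het at E13 (5.79 ± 1.33, 55.2-fold, adjusted p 0.0421). For E13 KO against E9 the change was -0.93 ± 0.99 (adjusted p 0.693). The first call was lost without E13 Het replicate 1 (adjusted p 0.0522) and with limma voom (0.0867). The second was lost without E13 Het replicate 1 or 2 or E13 KO replicate 1 or 3 (adjusted p up to 0.19), although the change stayed at 5.09 or above, and neither limma voom (0.353) nor fits of the 2 groups alone (0.119) or of all 12 libraries (0.0561) made it.

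Sostdc1 encodes a relative of sclerostin, also called ectodin or Wise, which binds both BMP ligands and Wnt co-receptors. Its levels were 149, 147 and 116 CPM at E9, 118, 107 and 125 CPM in E13 Het and 239, 171 and 224 CPM in E13 KO. All KO libraries were above the other 6, and the E9 and E13 Het libraries overlapped. Sostdc1 was 1.81-fold higher in KO than in Het at E13 (0.86 ± 0.19, adjusted p 0.0257). Against E9 the KO level gave 0.62 ± 0.19 and did not pass with edgeR (adjusted p 0.0556). That difference was called by DESeq2 (0.00604), limma voom (0.0435), with raw library totals (0.0371), without E13 KO replicate 2 (0.0421) and in the fit of the 2 groups alone (0.0499). The change over development in Het was -0.24 ± 0.19 (adjusted p 0.572). The call was lost without E13 Het replicate 1 or 2 or E13 KO replicate 1 or 3 (adjusted p up to 0.143).

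Notum encodes a secreted carboxylesterase that removes the lipid from Wnt ligands and so inactivates them. It stood at 28.3, 30.3 and 19.5 CPM at E9, at 0, 1.98 and 1.11 CPM in E13 Het and at 7.15, 9.56 and 5.98 CPM in E13 KO. The 3 groups did not overlap, with KO between the others. Notum fell from E9 to E13 in Het (-4.56 ± 1.02, 23.7-fold, adjusted p 0.0127). That call was lost without E9 Het replicate 1 or 2 (adjusted p up to 0.079). The difference of KO from Het at E13 was 2.79 ± 0.95 and did not pass with edgeR (adjusted p 0.205). DESeq2 (0.00413) and the fit of all 12 libraries (0.028) called it. Against E9 the KO level gave -1.78 ± 0.89 (adjusted p 0.276), which DESeq2, limma voom and a fit of the 2 groups alone called (adjusted p 0.0396, 0.0153 and 0.0428).

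Apcdd1 encodes a membrane glycoprotein that restrains Wnt signalling and is known from hereditary hair loss. Its levels were 73.9, 77.4 and 70.0 CPM at E9, 46.0, 94.5 and 67.8 CPM in E13 Het and 99.1, 110 and 81.9 CPM in E13 KO. The Het libraries at E13 spread widely and overlapped both other groups, while all KO libraries were above all E9 libraries. No comparison among epidermal groups called it: KO against Het at E13 gave 0.48 ± 0.26 (adjusted p 0.544), KO against E9 0.40 ± 0.26 (0.442) and E13 Het against E9 -0.08 ± 0.26 (0.916). Within E13 Het, replicate 2 had the highest Apcdd1 and also the highest sum of dermal mesenchyme markers, 1366 CPM against 295 and 304 CPM. In the KO libraries that sum was 1050, 2170 and 1247 CPM and Apcdd1 was again highest in replicate 2. The part of dermal RNA in these levels was not tested.

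Axin2 encodes a scaffold of the beta-catenin destruction complex and is among the most used readouts of canonical Wnt signalling. It stood at 172, 188 and 137 CPM at E9, at 230 (229.8), 201 and 135 CPM in E13 Het and at 173, 208 and 216 CPM in E13 KO. The 3 groups overlapped. KO against Het at E13 gave 0.08 ± 0.21 (1.06-fold, adjusted p 0.957), E13 Het against E9 0.19 ± 0.21 (0.722) and KO against E9 0.26 ± 0.21 (0.545). No alternative called a change of Axin2 in these comparisons, and the sign of the first turned without E13 Het replicate 3 or E13 KO replicate 3.

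Lef1 and Tcf7 encode HMG-box factors of the same family, which repress target genes without beta-catenin and activate them with it. Lef1 was at 103, 110 and 96.5 CPM at E9, at 259, 374 and 185 CPM in E13 Het and at 157, 197 and 137 CPM in E13 KO. Both E13 groups lay above E9, and KO replicate 2 was above Het replicate 3. Lef1 rose from E9 to E13 in Het (1.40 ± 0.23, 2.65-fold, adjusted p 0.00163), and that call held in each of the 17 alternatives. In KO against Het it stood at -0.74 ± 0.23 and did not pass (adjusted p 0.147). Without E13 Het replicate 3 it passed (-0.94, adjusted p 0.0239), as it did with DESeq2 (0.0241) and without the filter (0.0491). KO against E9 gave 0.67 ± 0.23 and did not pass with edgeR (adjusted p 0.0983), but did with DESeq2 (0.0268), without the filter (0.0487) and in the fit of the 2 groups alone (0.0389).

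Tcf7 encodes the factor also called TCF1. It was at 69.8, 71.8 and 88.3 CPM at E9, at 7.99, 19.0 and 17.0 CPM in E13 Het and at 4.87, 8.28 and 9.39 CPM in E13 KO. All E9 libraries were above all E13 libraries, and Het replicate 1 lay within the KO range. Tcf7 fell from E9 to E13 in Het (-2.37 ± 0.41, 5.19-fold, adjusted p 0.00233) and was 10.2-fold lower in E13 KO than at E9 (-3.36 ± 0.44, adjusted p 0.00025). Both calls held in each of the 17 alternatives. KO against Het at E13 gave -0.98 ± 0.41 and did not pass (adjusted p 0.353). The RefSeq record of Tcf7 overlaps that of Skp1, counted here as Skp1a, by 332 bases, and how reads there were assigned is unknown. Over development, then, Lef1 and Tcf7 changed in opposite directions in Het epidermis.

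**Figure D3:**
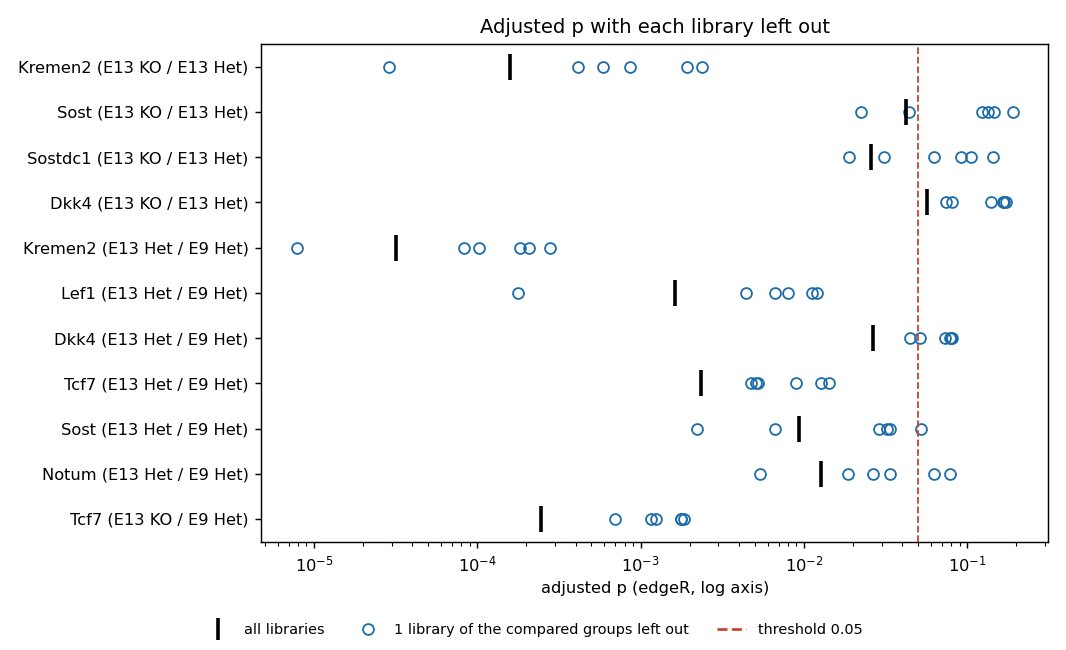
Adjusted p (log axis) of the calls among epidermal groups, and of Dkk4 in KO against Het, with all libraries (black bar) and with each library of the compared groups left out in turn (blue circles); the dashed line is 0.05. Circles of Kremen2, Lef1 and Tcf7 stay left of the line, while those of Sost, Sostdc1, Dkk4 and Notum lie on both sides of it or to its right.

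The dermis asks which layer of E13 skin holds each transcript, within the limit that the 2 layers were prepared differently. On the scale of the fit of these 6 libraries, Dkk1 stood at 36.6, 36.9 and 13.9 CPM, Notum at 57.7, 64.5 and 94.3 CPM and Tcf7 at 47.5, 57.2 and 45.4 CPM in the dermal libraries. Apcdd1 reached 1100 (1100.4), 944 and 1010 (1009.5) CPM there. Each of these dermal libraries was above each E13 Het epidermal library for the gene in question. Epidermis was lower by -6.83 ± 0.87 for Dkk1 (114-fold, adjusted p 0.00070), -6.19 ± 0.69 for Notum (72.8-fold, 0.00045), -4.10 ± 0.30 for Apcdd1 (17.2-fold, 5.7e-05) and -1.99 ± 0.38 for Tcf7 (3.97-fold, 0.00466).

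Of the other members, Kremen2, Dkk4, Sostdc1 and Lef1 were higher in E13 Het epidermis than in dermis. Kremen2 stood at 0.309, 3.38 and 0 CPM in dermis against 318, 236 and 172 CPM in E13 Het epidermis on this scale (7.92 ± 1.24, 242-fold, adjusted p 0.00316). Dkk4 was at 0 in dermis and at least 256-fold higher in epidermis (adjusted p 0.00212), measured against 3 counts over the dermal group, or 0.0492 CPM. Sostdc1 was at 17.1, 15.9 and 13.3 CPM in dermis and 6.37-fold higher in epidermis (2.67 ± 0.22, adjusted p 9.1e-05). Lef1 was at 56.8, 45.9 and 37.5 CPM in dermis and 4.95-fold higher in epidermis (2.31 ± 0.30, adjusted p 0.00074). Axin2 did not differ beyond its spread, at 249, 198 and 170 (169.7) CPM in dermis and 185, 175 and 115 CPM in epidermis (-0.38 ± 0.23, adjusted p 0.243). Sost had 0 counts in dermis and 5 in E13 Het epidermis and was not tested.

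Of the 9 genes tested between layers, 4 were higher in epidermis and 4 lower, and the libraries did not overlap for 8. Kremen2 and Dkk4 passed the filter of this fit through epidermis alone, and Dkk1 and Notum through dermis alone. Their calls and their lack of overlap are therefore partly set by the filter. Among all 12975 genes tested 34.7% were called and 56.1% did not overlap. The median log2 fold change of the 9 was -0.38, against -0.13 for all genes. With raw library totals the median of all genes moved to 0.30 and the split of all calls went from 2140 higher and 2364 lower to 3156 and 1438, while Axin2 was the 1 member whose sign turned (0.06). The 8 calls held in each of the 16 alternatives. On a scale common to all 12 libraries, dermis held the highest group mean of Dkk1, Notum, Apcdd1 and Axin2, though the dermal libraries overlapped E9 Het for Dkk1 and both E13 Het and E13 KO for Axin2. Dermis lay between E9 Het and E13 Het for Tcf7 without overlapping either.

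**Figure D4:**
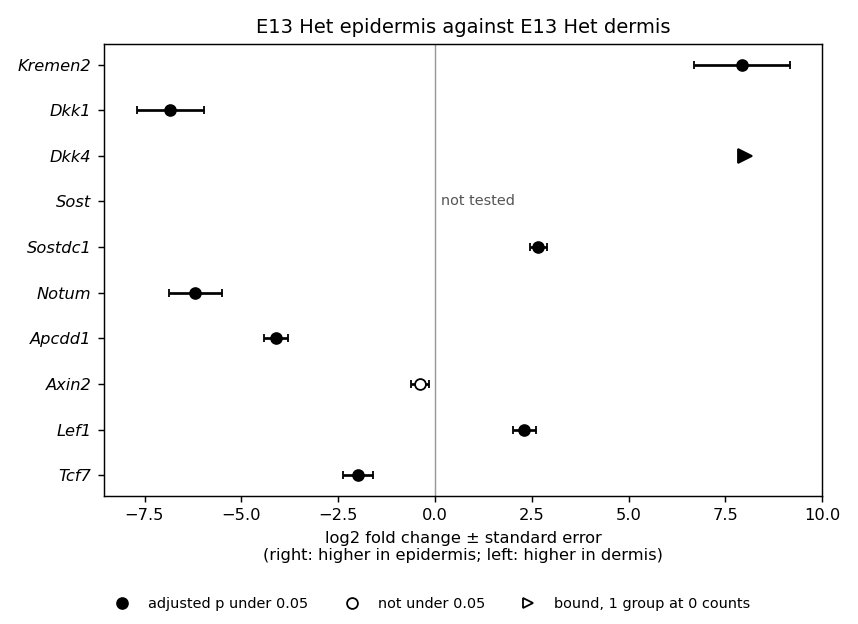
Log2 fold change (horizontal axis) ± standard error of each gene in E13 Het epidermis against E13 dermis, from the fit of those 6 libraries; filled symbols have an adjusted p under 0.05, the triangle is the bound for Dkk4, and values to the right are higher in epidermis. Kremen2, Dkk4, Sostdc1 and Lef1 lie to the right of 0 and Dkk1, Notum, Apcdd1 and Tcf7 to the left.

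The rest of the pathway was described with 85 further genes in 5 lists. In KO against Het at E13, 0 of the 76 tested were higher and 4 lower with edgeR, against 0.835% and 1.36% of all genes. At an unadjusted p under 0.05 there were 9 higher and 12 lower, DESeq2 called 3 and 9, and limma voom called 0 and 6. Their median log2 fold change was -0.06. Ctnnb1, the beta-catenin gene, fell from 1872 ± 273 CPM in Het to 1118 ± 30.2 CPM in KO (-0.74 ± 0.12, adjusted p 0.00306), and the cyclin D2 gene Ccnd2 fell from 605 ± 103 to 298.5 ± 27.9 CPM (-1.02 ± 0.15, adjusted p 0.00198). Lrp4, a low-density lipoprotein receptor that binds sclerostin, changed by -1.09 ± 0.23 (adjusted p 0.0257) and the R-spondin receptor gene Lgr4 by -1.003 ± 0.24 (adjusted p 0.0406). Calls of both were lost without E13 Het replicate 1 or 2 or E13 KO replicate 1 or 2 (adjusted p up to 0.127 for Lrp4 and 0.201 for Lgr4). The call of Lgr4 was also lost with RLE size factors (0.0515), raw totals (0.0654), a filter at 5 CPM (0.0515) and in the fit of the 2 groups alone (0.0708).

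By list in that comparison, 0 of 16 other secreted or membrane inhibitors were called with edgeR (1 higher and 3 lower at an unadjusted p under 0.05, 1 and 2 with DESeq2, 0 and 0 with limma voom). The 12 co-receptors, Lgr receptors and R-spondins had 0 higher and 2 lower (0 and 3 unadjusted, 0 and 2 with both other tools). The 16 cytoplasmic genes had 0 and 1 (5 and 1 unadjusted, 1 and 1 with DESeq2, 0 and 1 with limma voom). None of 15 nuclear partners was called (2 higher and 0 lower unadjusted, 1 and 0 with DESeq2, 0 and 0 with limma voom). Of 22 other genes widely described as Wnt targets, 0 were higher and 1 was lower. The counts of these targets were 1 and 6 unadjusted, 0 and 5 with DESeq2 and 0 and 3 with limma voom. The medians of the 5 lists were -0.10, -0.32, 0.23, 0.15 and -0.38, against 0.03 for all genes.

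Over development in Het epidermis, 12 of the same 76 genes were higher at E13 and 5 lower, against 4.77% and 2.53% of all genes, with a median of -0.13. The split was closer to even with other tools, at 14 and 11 with DESeq2, 14 and 12 with limma voom and 17 and 15 at an unadjusted p under 0.05. The higher ones included the ubiquitin ligase gene Rnf43, which lowers Frizzled at the cell surface (1.72 ± 0.22, adjusted p 0.00022), and the receptor genes Ryk (1.85 ± 0.16, 6.5e-06), Lgr4 (1.51 ± 0.24, 0.00121) and Lgr6 (4.64 ± 1.03, 0.0206). Ctnnb1 (0.84 ± 0.12, 0.00045) and Apc (0.54 ± 0.14, 0.0304) were higher in the cytoplasmic list. Among nuclear partners, Tcf7l2, of the same family as Lef1 and Tcf7, was higher (1.29 ± 0.24, 0.00404). Aes (1.10 ± 0.17, 0.00092) and the co-repressor gene Tle3 (0.64 ± 0.16, 0.0275) were higher too, and Cxxc5 was lower (-1.61 ± 0.42, 0.0322). Tnfrsf19 (1.75 ± 0.16, 1.0e-05) and the placode receptor gene Edar (2.02 ± 0.43, 0.00883) were higher among listed targets, and Bmp4, Ccnd1 and Sp8 lower (-2.76, -1.51 and -6.50). Igfbp4 was the lower inhibitor (-1.51 ± 0.29, 0.00811).

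Some of these calls rested on single libraries or on 1 setting. In the fit of all 12 libraries Rnf43 (adjusted p 0.144), Apc (0.0719) and Tcf7l2 (0.0502) were not called, and without the filter Lgr6 (0.0685) and Sp8 (0.0763) were not. Without the libraries with fewest genes, Igfbp4 was not called (0.103). Lgr6 was not called without E9 Het replicate 4 or E13 Het replicate 1 (adjusted p up to 0.098), Apc without E9 Het replicate 2 or 4 or E13 Het replicate 2 or 3 (up to 0.131) and Tle3 without E9 Het replicate 1, 2 or 4 or E13 Het replicate 1 (up to 0.126). Cxxc5 was not called without E9 Het replicate 1 or 2 or E13 Het replicate 2 or 3 (up to 0.136), Edar without E9 Het replicate 1 (0.0526) and Sp8 without E9 Het replicate 1 or 2 or E13 Het replicate 3 (up to 0.0761). Between E13 KO and E9 Het, 7 of the 76 were higher and 4 lower, against 4.62% and 3.05% of all genes. DESeq2 called 9 higher and 14 lower, limma voom 12 and 15, and 13 and 17 had an unadjusted p under 0.05, so the balance of directions turned with the tool. With edgeR, Ryk, Apc, Aes, Tcf7l2, Tle3, Tnfrsf19 and Rnf43 were higher there and Igfbp4, Ccnd1, Bambi and Sp8 lower. Calls of Tcf7l2, Tle3, Rnf43, Bambi and Sp8 were lost with 1 library left out. These were E9 Het replicate 1 or 2 or E13 KO replicate 2 for Tcf7l2, those 3, E9 Het replicate 4 or E13 KO replicate 1 for Tle3, and E9 Het replicate 2 for Rnf43. For Bambi they were E13 KO replicate 2 or 3, and for Sp8 any E9 Het library or E13 KO replicate 1 (adjusted p up to 0.151 over the 5 genes). The fit of all 12 libraries did not call Rnf43 (0.368) or Tcf7l2 (0.0916), and without the filter Bambi (0.0576) and Sp8 (0.105) were not called.

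Between the layers at E13, 21 of 74 tested pathway genes were higher in epidermis and 24 in dermis, against 16.5% and 18.2% of all genes. The genes with the smallest adjusted p in each list were Znrf3, Rnf43, Lypd6, Lgr6, Lrp4, Lgr4, Apc, Tnks, Dvl3, Tle3, Bcl9, Tcf7l2 and Edar on the epidermal side. On the dermal side they were Igfbp4, Wif1, Sfrp5, Rspo1, Ror2, Gsk3a, Nkd2, Nkd1, Aes, Tle2, Pygo2, Ccnd1, Twist2 and Tcf4. At E13 the ligase genes Znrf3 and Rnf43 were thus higher in Het epidermis than in dermis, as Kremen2 was. The secreted antagonist genes Wif1 and Sfrp5 were higher in dermis, as Dkk1 and Notum were. Wif1 and Sfrp5 had only 26 and 2 counts in E13 Het epidermis, and Rnf43 and Edar only 23 and 3 in dermis. The calls of these genes are therefore also partly set by the filter. Secreted antagonists lay on both sides, since Dkk4 and Sostdc1 were higher in epidermis. Calls of Ror2 and Pygo2 were lost without E13 Het replicate 2 or any dermal library, of Tle2 without dermal replicate 1 or 3, and of Aes without dermal replicate 2 (adjusted p up to 0.0839). With raw library totals Aes moved from -0.72 to -0.27 (adjusted p 0.344) and Pygo2 from -0.88 to -0.43 (0.224), and neither was called. Ror2 was not called without the filter (0.109), nor Pygo2 in the fit of all 12 libraries (0.053).

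Markers of other cells were summed in each library beside these results. The 6 hair placode genes summed to 340 (339.9), 256 and 190 (190.45) CPM in the E13 Het libraries, to 86.6, 91.2 and 67.7 CPM in E13 KO and to 72.7 to 111 CPM at E9. Wnt10b and Edar made up most of the E13 Het sums. On the scale common to all 12 libraries, Foxi3 was at 26.9, 8.29 and 5.80 CPM in E13 Het. It was at 0.607, 0 and 0 CPM in E13 KO and at 1.70, 0.353 and 8.74 CPM at E9. Fgf20 was at 4.07, 2.47 and 0.341 CPM in E13 Het and at 0 in every other library. Bmp2 and Shh did not follow these genes. On the scale common to all 12 libraries Bmp2 was at 52.7, 64.2 and 26.7 CPM at E9, against 29.2, 35.5 and 11.9 CPM in E13 Het, and Shh was at 9.87, 35.9 and 0 CPM in E13 KO, against 0, 4.58 and 0.511 CPM in E13 Het. Kremen2, Dkk4 and Axin2 had the same order over the E13 Het libraries as the placode sum, with replicate 1 highest and replicate 3 lowest. On the common scale Foxi3 and Fgf20 had that order too. Wnt10b, at 181, 121 and 127 CPM, did not have it on that scale, nor did Edar, Bmp2 and Shh. A link between these orders was not tested. The 6 apical ridge and ventral limb ectoderm genes summed to 226 to 433 CPM at E9, 18.2 to 29.6 CPM in E13 Het and 16.5 to 39.5 CPM in E13 KO. Replicate 4 had the lowest of the E9 sums and also the lowest E9 level of Sost. Among E9 libraries it also had the fewest genes detected (12642) and the lowest Trp63 (130.9 CPM). Its muscle, melanocyte and erythroid sums were the highest of that group (60.9, 66.3 and 28.2 CPM). The 12 dermal mesenchyme genes summed to 339 to 390.1 CPM at E9, where Twist2, Lum, Dcn and Dpt were at 0, and to 295 to 1366 CPM in E13 Het and 1050 to 2170 CPM in E13 KO, ranges that overlapped. Within that list Dcn was highest in E13 Het replicate 2, and Crabp1 was highest among epidermal groups at E9. On the scale common to all 12 libraries the dermal group held 32140 to 42345 CPM of them. The 10 neuron and neural tube genes summed to 1.998 to 34.0 CPM in E13 Het, 108 to 191 CPM in E13 KO and 64.2 to 97.2 CPM at E9. Map2 alone held 76.5, 122.7 and 44.8 CPM in the E13 KO libraries on the common scale. Map2 and Dcx were higher in every E13 KO library than in any E9 library, whereas Tubb3 and Sox1 were lower. Of the 10 genes, 4 were detected in all E13 KO libraries. Muscle, endothelial, melanocyte and erythroid markers each summed to 66.3 CPM or less in every epidermal library. The part of such cells in the levels of the 10 genes was not tested.

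**Figure D5:**
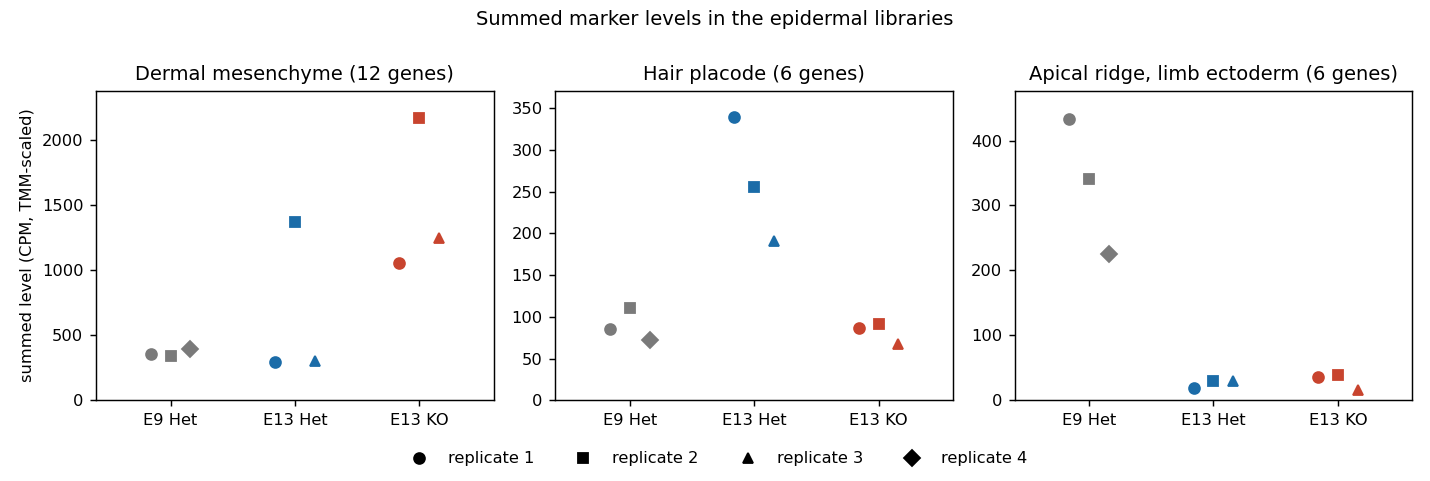
Summed CPM (vertical axes) of markers for dermal mesenchyme, hair placode, and apical ridge and limb ectoderm in the 9 epidermal libraries, with symbols for replicate numbers. The placode sum is highest in E13 Het (190.45 to 340 CPM) and the ridge and limb sum at E9 (226 to 433 CPM); the dermal sum reaches 2170 CPM in E13 KO replicate 2, and E13 Het replicate 2 (1366 CPM) lies within the KO range.

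Other genes followed the members closely over the 9 epidermal libraries, as a description over points that share library depth and group. Of 10103 genes whose mean reached 10 CPM in some group, Ctnnb1 had the highest Pearson correlation of log2 CPM with Kremen2 (r = 0.98), followed by Dkk4 (0.98). Dkk4 was nearest to Sv2b and Mlec (both 0.98), Dkk1 to Six3os1 and Ptpn21 (both 0.97) and Sost to the co-repressor gene Tle4 and to Foxo4 (both 0.95). Sostdc1 was nearest to Sqstm1 (0.97) and Lmo7 (0.95), Notum to Slc16a3 (0.98) and Ube4b (0.97), and Apcdd1 to Cdk17 and Xrn1 (both 0.97). Axin2 was nearest to Bloc1s5 (0.95) and Synj2bp (0.93), Lef1 to the BMP receptor gene Bmpr1b (0.96) and to Kat6a (0.95), and Tcf7 to Pou2f1 (0.99) and to the cyclin D1 gene Ccnd1 (0.98). Among the members themselves, the lowest correlations were -0.90 for Dkk4 with Sost, for Kremen2 with Notum and for Dkk4 with Notum.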

How the data were processed

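RNA was measured in 12 libraries, 3 per group. The ATAC-seq and ChIP-seq samples were not analysed here. The deposited files hold raw counts per gene symbol with 5 summary lines, which were left out of totals and tests and took 20.2% to 63.8% of the entries. TopHat2, Bowtie2, HTSeq and mm10 are named, without versions, per the submitters' processing notes. Whether counting used strand was not given in the sources used here. In the RefSeq table of GRCm38.p6, 1 member, Tcf7, overlaps another counted gene. Replicates differed by more than sampling noise (chi-square per degree of freedom 15.4 to 227).

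Counts were tested with edgeR 4.0.16 in R 4.3.3 (filterByExpr, TMM, robust quasi-likelihood F test, Benjamini-Hochberg adjustment). One fit held the 9 epidermal libraries (6 residual degrees of freedom), another the 6 libraries of E13 Het epidermis and dermis (4). Standard errors were derived from each log2 fold change and its F statistic (change divided by root F). The script was tested on simulated data. Alternatives were DESeq2 1.42.0, voom of limma 3.58.1, other scalings, filters, library subsets and a replicate block.

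The members and lists were chosen with earlier results of these data known. Named genes are the 10 members, Trp63, up to 3 called genes per list, direction and comparison with the smallest adjusted p, and the 2 genes most correlated with each member. GC content was not among the planned descriptions. No protein sequences were used here.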

Additional observations from a re-analysis of the deposited data

How the results depend on the processing

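Of 636 pairs of a member's change and an alternative, 577 kept their direction and their side of the threshold, 27 lost a call, 23 gained one and 9 changed sign, and the cause was not tested. The sign changes concerned uncalled values. E13 Het against E9 Het gave 0.065 with limma voom, 0.13 without E13 Het replicate 1 and 0.11 without the libraries with fewest genes for Apcdd1, and -0.0040 and -0.090 with the first and last of these for Axin2. KO against Het at E13 gave -0.11 without E13 Het replicate 3 and -0.0097 without E13 KO replicate 3 for Axin2, and -3.69 without E13 KO replicate 2 for Dkk1. With 1 library left out, these ranged from -0.37 to 0.13 (Apcdd1), -0.11 to 0.24 (Axin2) and -3.69 to 2.34 (Dkk1). Epidermis against dermis gave 0.061 for Axin2 with raw totals. The numbers of genes called in KO against Het, E13 Het against E9 and KO against E9 were 811, 1997 and 2172 with DESeq2 and 635, 1692 and 2563 with limma voom, and members called in KO against Het and KO against E9 were 6 and 4 with DESeq2. In KO against E9, 4 members were called with limma voom, 2 with raw totals, 2 without the filter and 4 in the fit of 2 groups. In KO against Het, 5 members were called without the filter and 1 without the libraries with fewest genes detected. Leaving out 1 library gave 182 to 348 genes and 1 to 4 members in KO against Het, 569 to 812 and 4 to 6 in E13 Het against E9, 557 to 815 and 1 to 2 in KO against E9, and 2934 to 5269 and 8 to 8 between layers. Of 1026 pairs for other named genes, 937 were unchanged and 89 lost a call.

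With the replicate number as a block, E9 Het replicate 4 stood alone in its block, since no other RNA library has that number. It then added nothing to the estimated changes. With these blocks 576 genes were called in E13 Het against E9 and 540 (333 higher, 207 lower) in KO against E9. Dkk4 and Notum lost their calls over development (adjusted p 0.191 and 0.0698). So did Igfbp4 (0.0846), Lgr6 (0.17), Apc (0.201) and Edar (0.0737), as well as Lgr4 in KO against Het (0.0815), Rnf43 in KO against E9 (0.0546) and Ror2 between layers (0.0651). Whether the numbers pair the samples is unknown. Deviations of same-numbered KO and Het libraries correlated at -0.05, 0.23 and -0.05, and not every library correlated best with its own number. With 3 libraries per group the deviations are tied to each other, so these values cannot decide it. Depth limits Dkk1, Sost and Dkk4, with 5, 5 and 0 counts in their lowest epidermal groups.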
